A study of Mus musculus and Rattus norvegicus with 28 samples.

Results

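The S100 proteins are small calcium-binding proteins of vertebrates, and 10 of their genes (S100a1, S100a4, S100a6, S100a8, S100a9, S100a10, S100a11, S100a13, S100a16 and S100b) were followed here by gene symbol, out of 55450 mouse and 32623 rat genes in the files. The set was chosen by its FPKM values in part, since S100a4 was selected on its rise between E18.5 and P7 in these same mouse libraries and the other members are its relatives, so P7 against E18.5 is given as a description with no test, and S100a4 was tested only in comparisons with neither E18.5 nor P7 libraries. The mouse samples were cardiomyocyte preparations from left ventricles of untreated wild-type C57BL/6 mice at embryonic day 18.5 (E18.5) and postnatal days 1, 3 and 7 (P1, P3 and P7), with 2 RNA-seq and 2 ATAC-seq libraries at each age. The rat samples were neonatal rat ventricular cardiomyocytes (NRVCs) from P1 Sprague Dawley rats, cultured and given 100 nM trichostatin A (TSA), an inhibitor of histone deacetylases, or DMSO as the control, with 3 RNA-seq libraries each. ATAC-seq marks open chromatin as peaks. The cells were freed by trypsin and collagenase, and cells that attached quickly to plastic were discarded, so other cell types can remain. The methods of the study call its replicates biological, and the labels do not tie a library to an animal, litter or culture, so p values measure the spread between these libraries. The 6 HiChIP libraries of the series were not analysed here.

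Most S100 proteins bind calcium through paired EF hands, change shape and then bind other proteins. S100a1 is the member best known from heart muscle, where it binds the ryanodine receptor and the calcium pump of the sarcoplasmic reticulum. S100a4 is widely used as a marker of fibroblasts and of migrating cells, S100a6 is known from proliferating cells, and S100a10 and S100a11 work as partners of annexins at membranes. S100a8 and S100a9 form calprotectin, the main cytosolic protein of neutrophils, and S100b is typical of glia.

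The label of the mouse samples was checked first against markers of each cell type, over 29.3 to 37.5 M aligned reads per library. The summed level of 10 cardiomyocyte markers, which include Tnnt2, Myh6 and Myl2, lay at 20978 to 25912 FPKM (fragments per kilobase of transcript, scaled to library depth) in the E18.5 libraries, 8912 to 14323 in those of P1, 5328 to 6281 in those of P3 and 619 to 1521 in those of P7. The sum of 10 fibroblast markers, which include Col1a1, Dcn and Pdgfra, lay at 858 to 939 FPKM in the E18.5 libraries, 1842 to 1903 in those of P1, 2355 to 2476 in those of P3 and 3856 to 4539 in those of P7. At P7 the fibroblast sum was above the cardiomyocyte sum in both libraries, against the label. Sums over different genes are not shares of cells. The paper describes its P7 cells as of high purity by staining for cardiac troponin T. It also reports that the promoters of the endothelial marker Pecam1 and the fibroblast marker Dcn were not accessible. Of the cardiomyocyte markers 9 of 10 fell at P3 against E18.5 by limma, and of the fibroblast markers 7 of 10 rose. The sum of 6 erythroid genes was 29044 to 35392 FPKM at E18.5 and 4.70 to 41.0 FPKM at every later age. The sum of 8 smooth muscle and pericyte markers was 416 to 543 FPKM at E18.5 and 1660 to 1866 at P7, while that of 8 endothelial markers was 233 to 421 and 356 to 417 FPKM. The 10 macrophage and monocyte markers summed to 46.7 to 48.2 FPKM at E18.5 and 109.5 to 186 later, and the 7 epicardial and mesothelial markers to 145 to 149 and 169 to 334. In such bulk samples fewer cells of a type and less RNA per cell cannot be told apart, and the part of these shifts in the results on the members was not tested.

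**Figure D1:**
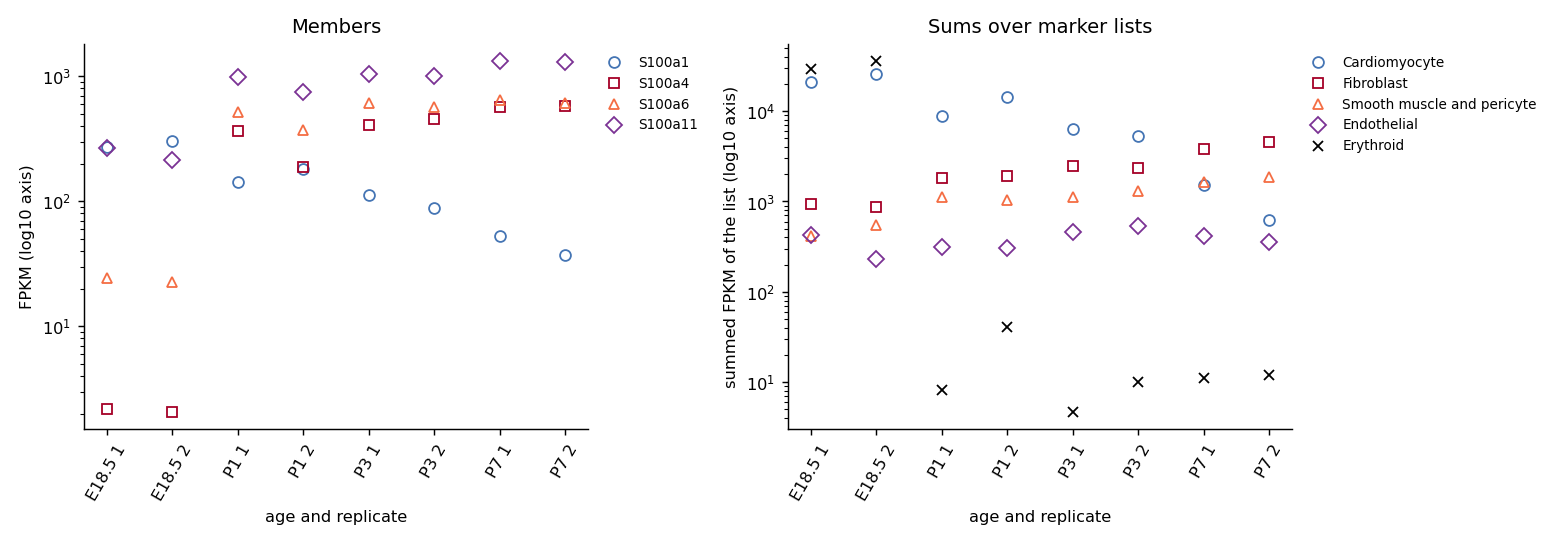
Levels of 4 members (left) and summed levels of 5 marker lists (right) in each mouse RNA-seq library, on log10 axes in FPKM; each symbol is 1 library, ordered by age and replicate. S100a1 lies lower at each later age together with the cardiomyocyte sum, and S100a4, S100a6 and S100a11 lie higher after birth together with the fibroblast sum.

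In the mouse genome (build mm10), 9 members lie on chromosome 3 and S100b on chromosome 10. The row begins with S100a1 (chr3:90511034-90514392, minus strand) and S100a13 (chr3:90514435-90524581, plus strand), whose starts face away from each other with 42 bases between them. S100a16 (chr3:90537254-90543151), S100a4 (chr3:90603771-90606045), S100a6 (chr3:90612882-90624181) and S100a8 (chr3:90668978-90670035) follow on the plus strand, and S100a9 (chr3:90692632-90695721) closes the row on the minus strand. S100a11 (chr3:93520488-93526287) starts 2824767 bases beyond the start of S100a9, and S100a10 (chr3:93555080-93564643) another 34592 bases on, both on the plus strand, as is S100b (chr10:76253853-76261159). S100a4 and S100a6 are near neighbours, with S100a5 between them, 4752 bases beyond the start of S100a4 and 4359 bases before that of S100a6.

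The sequences upstream of S100a4, S100a6 and S100a11 are shown because these members were higher at every postnatal age and because ATAC-seq peaks lay over them. They are from RefSeq (GRCm38.p6, the assembly of mm10), plus strand, 5′ to 3′, and end at the base before the earlier of the RefSeq and GENCODE starts. Capitals mark matches to TATAAA, to TGACTCA or its reverse complement TGAGTCA (the AP-1 motif), and to GGGCGG (the GC box), each searched on both strands.
S100a4, chr3:90603520-90603769: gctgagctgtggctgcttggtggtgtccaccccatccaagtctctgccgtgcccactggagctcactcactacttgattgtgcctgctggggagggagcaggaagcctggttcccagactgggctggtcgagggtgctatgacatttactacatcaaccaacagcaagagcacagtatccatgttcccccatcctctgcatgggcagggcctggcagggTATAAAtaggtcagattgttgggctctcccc
S100a6, chr3:90612644-90612881: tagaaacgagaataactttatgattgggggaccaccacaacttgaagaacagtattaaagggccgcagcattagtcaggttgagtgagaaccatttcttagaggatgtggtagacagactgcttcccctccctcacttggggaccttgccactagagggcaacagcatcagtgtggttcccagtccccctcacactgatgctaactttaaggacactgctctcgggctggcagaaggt
S100a11, chr3:93520246-93520487: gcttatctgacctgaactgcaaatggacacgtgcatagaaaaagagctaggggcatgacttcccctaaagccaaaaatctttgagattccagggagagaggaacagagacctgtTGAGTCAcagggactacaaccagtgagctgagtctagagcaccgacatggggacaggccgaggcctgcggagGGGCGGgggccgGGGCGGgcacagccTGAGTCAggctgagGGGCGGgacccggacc

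The 3 sequences held different motifs. S100a4 had 1 TATAAA, with its first base 31 bases before the RefSeq start, and S100a6 had no match to any of the 3 motifs. S100a11 had 2 AP-1 matches, at 136 and 38 bases before the start, and 3 GC boxes. Among the other members with an entry (9 of the 10 had one), S100a8 had TATAAA at 30 bases, S100a9 had 1 GC box and S100a16 had 1 GC box before 1 of its 2 listed starts, and none had an AP-1 match. Over the 250 bases before each of 32851 starts in the same table, 4.46% held an AP-1 match, 12.4% TATAAA, 32.7% a GC box and 2.92% the MEF2 consensus, which no member held. A match describes the letters and is not a bound site.

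The levels of the members spanned more than 3 powers of 10. At E18.5 the order began with S100a1 at 287 ± 24.6 FPKM (mean ± SD, n = 2 here and for every mouse group), followed by S100a11 at 241 ± 36.6 and S100a10 at 182 ± 41.7. These first 3 did not overlap, but the gaps between their libraries were smaller than the spread within each. S100a13 (39.9 ± 1.91 FPKM), S100a6 (23.6 ± 1.26), S100a16 (21.0 ± 3.35) and S100a9 (12.2 ± 4.46) came next, with S100a6 and S100a16 overlapping. S100a8 (5.45 ± 0.387 FPKM), S100a4 (2.13 ± 0.0912) and S100b (0.200 ± 0.171) closed the order. At P7 the order was S100a11 at 1305 ± 7.00 FPKM, S100a6 at 628 ± 26.3, S100a4 at 572 ± 12.3 and S100a10 at 291 ± 3.31, with no overlap between neighbours, although S100a6 and S100a4 lay closer than the 2 libraries of S100a6. S100a1 (45.0 ± 10.9 FPKM), S100a16 (34.7 ± 0.488) and S100a13 (20.2 ± 2.17) followed, and S100a9 (1.03 ± 0.220), S100a8 (0.817 ± 0.458) and S100b (0.342 ± 0.259) lay near 1 FPKM or below and overlapped from one to the next. S100a1 thus ranked 1 of the 10 at E18.5 and 5 at P7, and S100a4 ranked 9 and 3. S100a1 made up 31.6% and 39.3% of the members' summed FPKM in the E18.5 libraries against 1.81% and 1.298% in the P7 libraries, and S100a4 0.257% and 0.267% against 19.3% and 20.2%. The sum itself was 853 and 775 FPKM at E18.5, and 2919 and 2876 FPKM at P7.

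**Figure D2:**
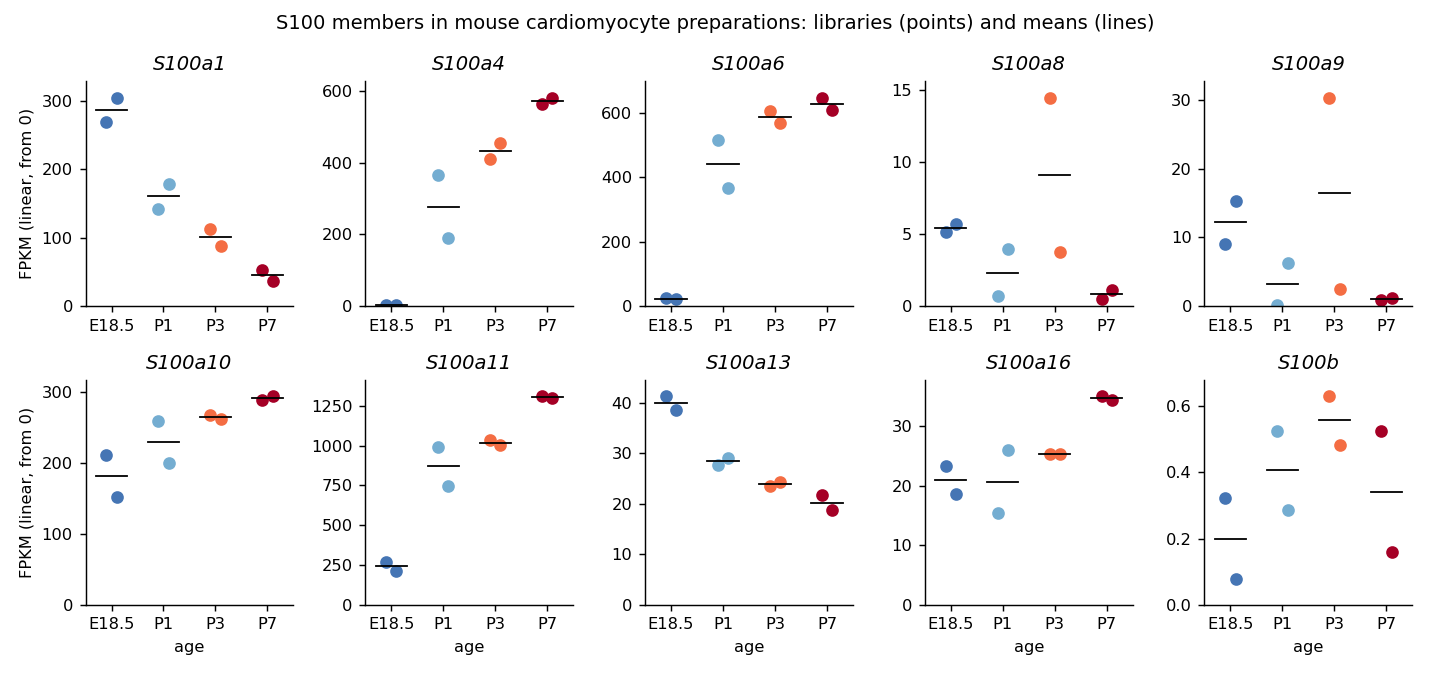
FPKM of each of the 10 members in mouse RNA-seq libraries by age, on linear axes from 0 with a scale of their own; points are libraries and lines the means of 2. S100a4, S100a6 and S100a11 step up between E18.5 and P1, S100a1 and S100a13 are lower at each later age, and S100a8 and S100a9 are high in 1 of the 2 P3 libraries.

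S100a4 was near the lower end of detection before birth. It read 2.19 and 2.07 FPKM in the E18.5 libraries, 364 and 189 in those of P1, 409 and 455 in those of P3 and 563 and 581 in those of P7. The E18.5 values rest on about 31.9 and 35.0 reads, against 3514 to 10345 reads at the later ages. No E18.5 library overlapped a later one, and P1 replicate 2 was the lowest of the postnatal libraries. The cardiomyocyte sum was 14323 FPKM in that library and 8912 in P1 replicate 1. The mean at P7 was 269 times that at E18.5. The log2(FPKM + 1) scale understates changes of low genes. On it the difference from E18.5 was 6.39 (SE 0.26) at P1, 7.11 (SE 0.26) at P3 and 7.52 (SE 0.26) at P7. S100a4 was chosen for this rise, so its rank of 4 among the P7 rises of 13979 tested genes only restates the choice. Nearly all of the level came from the longer of its transcripts, which starts at base 90603771 and took 98.3% to 99.8% of the gene's FPKM in the E18.5 and P7 libraries. Against P1, where a test was allowed, P3 was higher by 0.72 on the log2 scale (SE 0.26, limma adjusted p = 0.352), and both P3 libraries lay above both P1 libraries. Without P1 replicate 1 this difference was 1.19 (SE 0.14, limma adjusted p = 0.0356), and over all alternatives the adjusted p ran from 0.0356 to 0.933.

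S100a6 and S100a11 showed the same step at birth. S100a6 read 24.5 and 22.7 FPKM in the E18.5 libraries, 516 and 368 in those of P1, 606 and 569 in those of P3 and 646 and 609 in those of P7. S100a11, the most abundant member after birth, read 267 and 215 FPKM in the E18.5 libraries, 993 and 749 in those of P1, 1032 and 1002 in those of P3 and 1309.6 and 1299.7 in those of P7. In both genes every postnatal library lay above both E18.5 libraries, and P1 replicate 2 was again the lowest of them. S100a6 rose by 4.15 on the log2 scale at P1 (SE 0.16, limma adjusted p = 1.28e-05) and by 4.58 at P3 (SE 0.16, adjusted p = 6.29e-06). S100a11 rose by 1.85 at P1 (SE 0.17, limma adjusted p = 0.000191) and by 2.08 at P3 (SE 0.17, adjusted p = 7.31e-05). The log2 differences between P7 and E18.5 were 4.68 (SE 0.16) for S100a6 and 2.44 (SE 0.17) for S100a11. After P1 the differences were smaller. S100a11 differed between P7 and P1 by 0.60 (SE 0.17, limma adjusted p = 0.0421), below the fold threshold, and S100a6 by 0.53 (SE 0.16, adjusted p = 0.062).

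Smaller differences were measured in S100a10 and S100a16. S100a10, the light chain of the annexin A2 tetramer, read 211 and 152 FPKM in the E18.5 libraries, 258 and 199.5 in those of P1, 267 and 261 in those of P3 and 289 and 293 in those of P7. Its P1 libraries overlapped those of E18.5, and the P3 and P7 libraries lay above them. The log2 difference from E18.5 was 0.34 at P1 (SE 0.18, limma adjusted p = 0.167), 0.56 at P3 (SE 0.18, adjusted p = 0.0334) and 0.70 at P7 (SE 0.18), below the fold threshold throughout. S100a16, a member with a broad tissue range, read 23.4 and 18.6 FPKM in the E18.5 libraries, 15.4 and 26.0 in those of P1, 25.4 and 25.3 in those of P3 and 35.0 and 34.3 in those of P7. Only its P1 libraries straddled those of E18.5, and it stood highest at P7. Its log2 difference between P7 and P1 was 0.76 (SE 0.22, limma adjusted p = 0.0509), and without P1 replicate 2 it was 1.12 (SE 0.18, adjusted p = 0.0115), past both thresholds, while all alternatives ran from 0.0115 to 0.182. Of its level at E18.5, 51.3% and 51.2% was given to a transcript that starts inside the gene, at base 90541161, against 41.6% and 40.8% at P7.

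S100a1 was lower at each later age. It read 269.8 and 305 FPKM in the E18.5 libraries, 143 and 179 in those of P1, 112 and 88.6 in those of P3 and 52.8 and 37.3 in those of P7, with no overlap between any 2 ages. The mean at E18.5 was 6.38 times that at P7. Against E18.5 the log2 difference was -0.84 at P1 (SE 0.20, limma adjusted p = 0.0122), short of the fold threshold, and it fell by 1.51 at P3 (SE 0.20, adjusted p = 0.000635). With size factors in place of FPKM scaling the P1 difference was -1.04 and passed (limma adjusted p = 0.00607), and over all alternatives its adjusted p ran from 0.00607 to 0.0731. It then fell by 1.83 between P1 and P7 (SE 0.20, limma adjusted p = 0.00115) and by 1.15 between P3 and P7 (SE 0.20, adjusted p = 0.0191). The last of these calls did not hold without P3 replicate 1 (-0.98, limma adjusted p = 0.135), P3 replicate 2 (-1.32, adjusted p = 0.0658) or P7 replicate 2 (-0.91, adjusted p = 0.134), or without the filter on low genes (-1.15, adjusted p = 0.121), and all alternatives ran from 0.0136 to 0.135. The log2 difference between P7 and E18.5 was -2.66 (SE 0.20), beside a median of -4.01 over the 10 cardiomyocyte markers, each of which was lower. S100a1's longer transcript took 85.3% and 85.4% of its FPKM at E18.5 and 83.3% and 79.8% at P7.

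S100a13, whose start is shared with S100a1 and which is known for the release of fibroblast growth factor 1, moved the same way by less. It read 41.3 and 38.6 FPKM in the E18.5 libraries, 27.7 and 29.1 in those of P1, 23.6 and 24.2 in those of P3 and 21.8 and 18.7 in those of P7, without overlap between ages. Its log2 difference from E18.5 was -0.48 at P1 (SE 0.13, limma adjusted p = 0.0177), -0.72 at P3 (SE 0.13, adjusted p = 0.00233) and -0.95 at P7 (SE 0.13). None of these reached the fold threshold. With size factors the difference at P7 was -1.13.

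S100a8 and S100a9 varied widely between replicates of an age. S100a8 read 5.17 and 5.72 FPKM in the E18.5 libraries, 0.68 and 3.94 in those of P1, 14.5 and 3.78 in those of P3 and 0.49 and 1.14 in those of P7. S100a9 read 9.04 and 15.4 FPKM in the E18.5 libraries, 0.22 and 6.22 in those of P1, 30.3 and 2.48 in those of P3 and 0.88 and 1.19 in those of P7. In both genes P3 replicate 1 was the highest library of all, and both P7 libraries lay below both E18.5 libraries. The log2 difference between P7 and E18.5 was -1.85 (SE 0.61) for S100a8 and -2.66 (SE 1.04) for S100a9. At P1 it was -1.16 (SE 0.61, limma adjusted p = 0.16) and -2.11 (SE 1.04, adjusted p = 0.14). Without P1 replicate 2 both passed, at -1.94 for S100a8 (limma adjusted p = 0.0455) and -3.40 for S100a9 (adjusted p = 0.0466), where other alternatives reached an adjusted p of 0.67 and 0.596.

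The 12 neutrophil markers did not move as 1 list. In 4 of them (Ngp, Ltf, Elane and Mpo) P3 replicate 1 was the highest library, as it was in S100a8 and S100a9. In 7 both P7 libraries lay below both E18.5 libraries, as in the calprotectin genes, and in 3 (Lcn2, Mmp8 and Mpo) above them. Ngp, a granule protein of neutrophils, read 4.19 and 7.06 FPKM in the E18.5 libraries, 0.45 and 2.91 in those of P1, 10.1 and 1.65 in those of P3 and 0.39 and 0.36 in those of P7, and Ltf, which encodes lactoferrin, read 2.88 FPKM in P3 replicate 1 and at most 1.76 FPKM elsewhere. Other markers went another way. Mmp8, the neutrophil collagenase, read 0.53 and 0.22 FPKM at E18.5 and 5.07 and 4.47 FPKM at P7. Camp, a granule peptide gene, was highest in P7 replicate 2 (2.69 FPKM), but E18.5 replicate 2 (2.36 FPKM) lay above P7 replicate 1 (2.26 FPKM). Of the 12 neutrophil markers, 2 to 7 reached 1 FPKM in a library. Their sum was 14.1 to 20.8 FPKM in the E18.5 libraries, 82.8 to 83.6 in those of P1, 94.9 to 99.4 in those of P3 and 132 to 133 in those of P7, but Lcn2 alone made up 70.5 to 123 FPKM of it after birth. Retnlg and Ly6g were listed at 0 in all 6 postnatal libraries. The part of neutrophils in the levels of S100a8 and S100a9 was not tested.

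S100b was below the filter in mouse. It read 0.32 and 0.08 FPKM in the E18.5 libraries, 0.52 and 0.29 in those of P1, 0.63 and 0.48 in those of P3 and 0.53 and 0.16 in those of P7, from 4 to 35.0 reads each. The ages overlapped, except that both P3 libraries lay above both E18.5 libraries, and a difference was not detectable at this depth. S100b overlaps Dip2a on the opposite strand (3.06 to 6.34 FPKM), and no source used here says that reads were counted by strand. The sum of 8 glial markers was 4.94 to 5.43 FPKM in the E18.5 libraries, 8.53 to 12.2 in those of P1, 6.46 to 6.88 in those of P3 and 5.55 to 5.99 in those of P7, and Mbp, also made by other cells, gave most of the sum after birth. Sox10, which defines the lineage, was at 0.04 to 0.51 FPKM.

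Of the 9 members that could be tested at P1 against E18.5 (all but S100a4), 8 passed the filter on low genes, and 2 of these, S100a6 and S100a11, were called, with both higher. A call needed an adjusted p under 0.05 together with a log2 difference over 1 in size. Over all 13979 tested genes 16.2% were called in this comparison, 10.1% as higher. Without P1 replicate 2, which left 1 P1 library, the log2 differences were -1.002 for S100a1, -1.94 for S100a8 and -3.40 for S100a9. At P3 against E18.5 the called members were S100a6 and S100a11, higher, and S100a1, lower, or 3 of 8, where 21.9% of all tested genes were called. Between P1 and P3 none of 9 members was called by limma or by limma-voom, with 4 at an unadjusted p under 0.05, where 0.0143% of all genes were called. S100a1 was the 1 called member of 8 at P7 against P1 (8.91% of all genes called, 5.46% as lower) and at P7 against P3 (3.55% called, 2.20% as lower). As a description, at P7 against E18.5, 6 of the 9 members above the filter were past the fold threshold with libraries that did not overlap. S100a4, S100a6 and S100a11 were higher, and S100a1, S100a8 and S100a9 lower, beside 28.0% of all genes. Against E18.5, the 8 members other than S100a4 had a median log2 difference of -0.27 (P1), 0.34 (P3) and -0.13 (P7), beside 0.15, 0.16 and 0.14 over all tested genes. With S100a4, the member picked for its rise, the medians were -0.055, 0.42 and 0.70, so that including it turned the sign at P7. Size factors brought the medians over all tested genes to -0.01, -0.02 and -0.01, so the differences from E18.5 are to be read against such a shift.

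**Figure D3:**
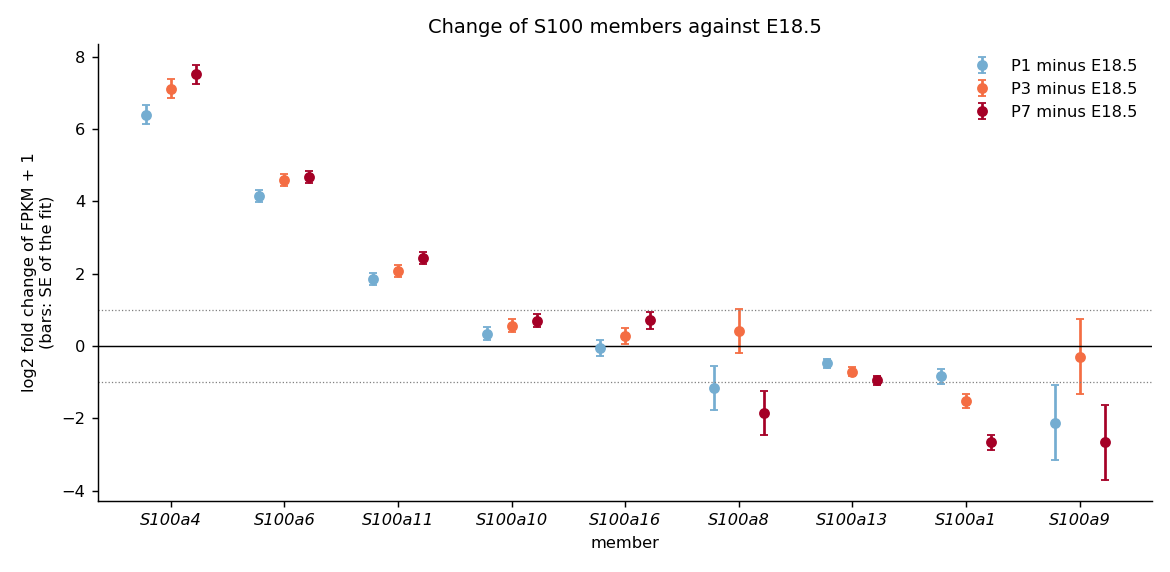
Log2 fold change of FPKM + 1 against E18.5 at P1, P3 and P7 for the 9 members above the filter; bars are the SE of the limma fit, n = 2 libraries per age, and dotted lines mark a change of 1. S100a4, S100a6 and S100a11 lie above the upper line at all 3 ages, S100a1 moves further down with age, and the bars of S100a8 and S100a9 are the widest.

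The genes most like S100a4 over the 8 mouse libraries were Smo, a receptor of the hedgehog pathway (Pearson r = 0.9995 of log2(FPKM + 1)), Rab31 (r = 0.9989), S100a6 (r = 0.9988), Eftud2 (r = 0.9987) and Fgf23 (r = 0.9986), out of 8939 genes with a mean of at least 5 FPKM. Rab31 encodes a GTPase of vesicle traffic, Eftud2 a spliceosome protein and Fgf23 a phosphate hormone. S100a4 differed most between the E18.5 and the postnatal libraries, and r weighs that step most. The mean of Smo was 6.32 FPKM before birth and 24.0 FPKM at P7. The genes most like S100a1 were Ndufa5, of respiratory complex I (r = 0.9983), the ventricular myosin light chain gene Myl2 (r = 0.9978), Lrrc39 (r = 0.9974), Apoo (r = 0.9972) and Mlip (r = 0.9971). Myl2 itself stood at 6051 FPKM in the E18.5 libraries, 1738 in those of P1, 775 in those of P3 and 139 in those of P7. The 8 libraries come from 4 ages over which many genes and the marker sums moved together, so r is a description only.

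S100 proteins act on other proteins, and 21 known partners and receptors were followed as a list, of which 19 were tested in mouse. At P1 against E18.5, 3 rose and 2 fell, where 16.2% of all tested genes were called. Anxa1, an annexin bound by S100a11, rose by 3.20 on the log2 scale (SE 0.22, limma adjusted p = 6.51e-05), from 25.5 ± 6.15 to 246 ± 76.2 FPKM. Myh9, the nonmuscle myosin heavy chain that S100a4 binds, rose by 1.73 (SE 0.24, limma adjusted p = 0.000997), and Fgf1 by 1.09 (SE 0.26, adjusted p = 0.0112). The scavenger receptor gene Cd36 fell by 1.58 (SE 0.17, limma adjusted p = 0.000335) and the cytokine gene Il1a by 1.10 (SE 0.16, adjusted p = 0.00151), the latter from 2.87 to 0.79 FPKM. At P3 against E18.5, 3 rose (Anxa1 by 3.51, Myh9 by 2.11 and Anxa5 by 1.06) and 2 fell (Ryr2 by 1.48 and Cd36 by 1.37), where 21.9% of all tested genes were called. Anxa2, the partner of S100a10, differed from E18.5 by 0.62 at P1 (limma adjusted p = 0.0164) and 0.95 at P3 (adjusted p = 0.00203), short of the fold threshold.

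Later, the partners of S100a1 in calcium handling were lower. At P7 against P1, Ryr2, the ryanodine receptor, fell by 2.97 (SE 0.31, limma adjusted p = 0.00103), and Atp2a2, the calcium pump, fell by 2.77 (SE 0.32, adjusted p = 0.00126), from 863 ± 359 to 124 ± 47.0 FPKM. Fgf1 fell by 2.14 and the potassium channel gene Kcnk3 by 1.21, and Il1a rose by 2.11, which made 1 higher and 4 lower of 19. Over all tested genes 8.91% were called in this comparison. The same 5 genes were called at P7 against P3, where 3.55% of all tested genes were called. Their log2 differences were -1.96 for Ryr2, -1.69 for Atp2a2, -1.68 for Fgf1, -1.45 for Kcnk3 and 1.998 for Il1a. Ager and Tlr4, receptors of S100 proteins, stayed under 3 FPKM in mean at every age, and Cacybp, which binds S100a6, stayed between 67.2 and 72.2 FPKM in mean. Ryr2 is also in the cardiomyocyte list, and the part of the shift in cell markers in these partners was not tested.

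Other S100 genes were at or near 0. S100a3, which lies upstream of S100a4 with S100a2 between them, was the 1 other S100 gene over 1 FPKM in at least 2 mouse libraries. It read 0.26 and 0.44 FPKM in the E18.5 libraries, 1.82 and 1.37 in those of P1, 1.06 and 2.39 in those of P3 and 0.35 and 0.79 in those of P7. S100a2 and S100z were listed at 0 in all 8 mouse libraries, and S100a5, which lies between S100a4 and S100a6, was listed at 0 in 6 of 8 and reached at most 0.21 FPKM.

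In the ATAC-seq peak lists S100a11 was the only member with a peak near its start before birth. A peak was counted where it overlapped 2.5 kb either side of a transcript start. Over all tested genes 67.1% and 62.4% had such a peak in the E18.5 libraries. S100a11 had one in all 8 libraries, with a fold enrichment over background of 5.63 and 5.47 at E18.5 and summits at 23 and -188 bases from the start (minus is upstream). In P1 replicate 2 its peak lay further in, with the summit at 570 bases and a fold enrichment of 3.41. The peaks of both P3 and both P7 libraries nearest its start had summits at -138 to -71 bases, over the printed sequence with its AP-1 matches and GC boxes.

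At P3 and P7 another 6 members had peaks too. S100a1 and S100a13, which share a start region and so a peak, S100a4, S100a6, S100a10 and S100a16 each had a peak in both P3 and both P7 libraries and in neither E18.5 library, or 6 of 10 members (15.6% of all tested genes at P3 and 12.1% at P7). At P1 the same 6 had a peak in replicate 1 and none in replicate 2, so no member was gained at P1, where 1.37% of all genes were. Without P1 replicate 2 the count was 6, where 6.35% of all genes were gained. Over all tested genes 69.2% had a promoter peak in P1 replicate 1 and 43% in P1 replicate 2, the lowest share of any library. The absence of the members there is to be read against that share. The lists were of unequal length, with 13149 and 14910 peaks at E18.5 and 29281 and 19753 at P1. At P3 they held 95257 and 52040 peaks, and at P7 49113 and 35898. Cut to the 13149 peaks of highest score in every library, none of the 6 was gained at P3 (1.48% of all genes), and 2, S100a6 and S100a10, were gained at P7 (1.52%). At both ages S100a4 and S100a6 dropped out where a fold enrichment of at least 4 was required, which left 4, S100a1 and S100a13 dropped out with a window of 5 kb, where S100b came in and made 5, and S100a10 dropped out with RefSeq starts, which left 5.

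**Figure D4:**
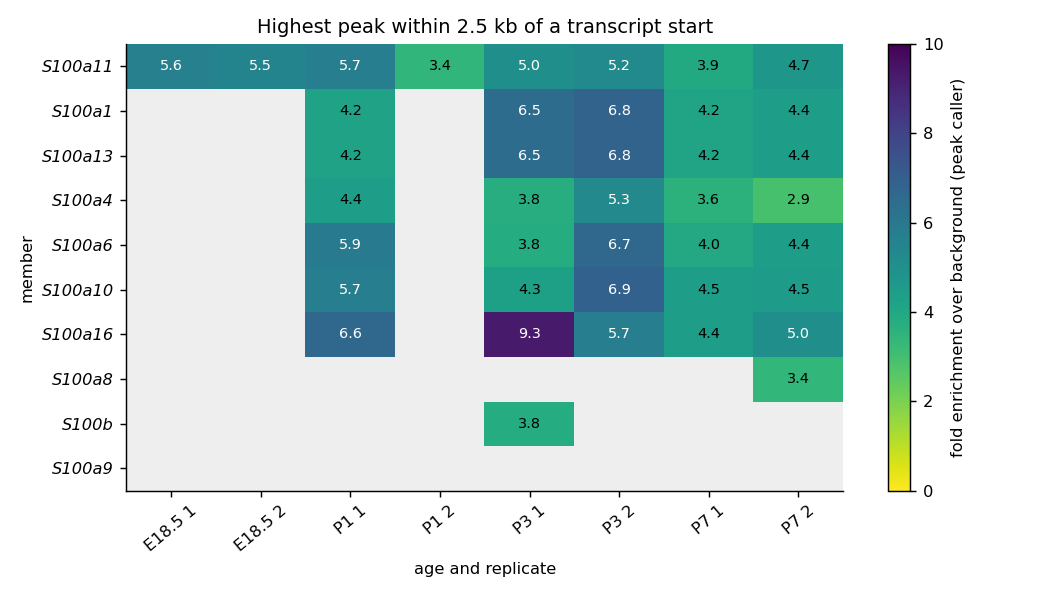
Highest fold enrichment of an ATAC-seq peak within 2.5 kb of a transcript start for each member (rows) and mouse library (columns); grey means that no peak was listed. S100a11 has a peak in all 8 libraries, 6 other members in 5 libraries each, S100a8 and S100b in 1 library each and S100a9 in none.

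The start of S100a4 had a narrow peak in P1 replicate 1 and in each P3 and P7 library. Its fold enrichment was 3.62 in the P1 library, 3.78 and 5.30 in the P3 libraries and 3.57 and 2.90 in the P7 libraries, with summits at -94 to -14 bases, over the printed sequence. A peak further into the gene had its summit 729 to 866 bases after the start in P1 replicate 1, both P3 libraries and P7 replicate 1, and was not listed in P7 replicate 2. The P7 level of S100a4 RNA, part of the ground for its choice, was above the P3 level in both libraries. The fold enrichment of its start peak at P7 was below that of both P3 libraries. This was not particular to S100a4, since the start peaks of S100a1 and S100a13, S100a11 and S100a16 were lower at P7 too. Those of S100a6 and S100a10 overlapped between the 2 ages. Fold enrichment was computed per library and was not scaled between libraries.

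The peak shared by S100a1 and S100a13 was listed only after birth, when their RNA was lower than at E18.5. Its fold enrichment was 4.23 in P1 replicate 1, 6.46 and 6.81 at P3, and 4.17 and 4.39 at P7, with summits at -132 to 28 bases from the start of S100a1. In each of these libraries it ranked below the 13149 peaks of highest score, so at the length of the shortest E18.5 list it was listed at no age. S100a16 had the highest value of any member, 9.27 in P3 replicate 1, with a summit 66 bases after its first start. S100a6 ranged from 3.79 to 6.67 and S100a10 from 4.30 to 6.88 in the highest peak of a library. S100a10 carried both a start peak, at 104 to 170 bases, and one at 992 to 1061 bases after the start in each P3 and P7 library. S100a8 had a peak in P7 replicate 2 (3.37) and S100b in P3 replicate 1 (3.82), each in 1 library only, and S100a9 had none in any.

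No member passed both thresholds with TSA in NRVCs in the main fit, which did not pair the libraries. With DMSO the order of levels was S100a11 at 522 ± 219 FPKM (mean ± SD, n = 3), S100a4 at 348 ± 53.8, S100a6 at 259.7 ± 60.5, S100a10 at 137 ± 4.596, S100a16 at 74.4 ± 5.39, S100a1 at 50.3 ± 17.9, S100a13 at 32.9 ± 5.13 and S100b at 1.72 ± 0.274, with S100a11, S100a4 and S100a6 each overlapping the next, as did S100a1 and S100a13. With TSA S100a6 (389 ± 46.4 FPKM) stood above S100a4 (243 ± 24.4), and S100a1 (117 ± 7.37) above S100a16 (62.8 ± 10.4). Of the 10 members, 8 passed the filter, since S100a9 was listed at 0 in all 6 rat libraries and S100a8 at 0 in 4 of 6. None of the 8 was called by limma or limma-voom, with 5 at an unadjusted p under 0.05, where 2.13% of all 13625 tested genes were called. With the replicate number as a block, which takes same-numbered rat libraries as pairs, 1 member, S100a1, was called. Over all 13625 tested genes 339 were called with the block, against 290 in the main fit. The groups did not overlap in 6 of the 8, beside 27.2% of all genes. For each of these 6 the exact two-sided permutation test over the 20 splits, which leaves any pairing out, gave p = 0.1, the smallest that 3 against 3 can give. Groups of 3 that do not overlap always give this value, so the test adds nothing to the lack of overlap.

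S100a1 was the member nearest to a call. It read 61.9, 59.3 and 29.7 FPKM with DMSO and 116, 124 and 109.7 with TSA, where every TSA library lay above every DMSO library. The log2 difference was 1.27 (SE 0.27, limma adjusted p = 0.055). The labels do not say whether same-numbered rat libraries are pairs. With the replicate taken as a block the same difference had an SE of 0.20 and passed (limma adjusted p = 0.0437). It also passed with size factors (1.23, limma adjusted p = 0.0464), and over all alternatives the adjusted p ran from 0.00231 to 0.202. DMSO replicate 3 was low, and without it the difference was 0.93 (SE 0.09, limma adjusted p = 0.00729), below the fold threshold. The sum of 9 cardiomyocyte markers was 9187 to 9651 FPKM with DMSO and 8132 to 12332 with TSA. That sum hides opposite moves in DMSO replicate 3. Tnnt2, Tnni3, Myh6, Pln and Ryr2 were lowest there among the DMSO libraries, as S100a1 was, and Myh7, Actn2, Myl2 and Myl3 were highest. Their part in the level of S100a1 was not tested. S100a13, its neighbour, read 38.2, 32.5 and 28.0 FPKM with DMSO and 43.1, 49.7 and 39.1 with TSA, a difference of 0.41 (SE 0.15, limma adjusted p = 0.179) without overlap.

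S100b and S100a6 also lay higher with TSA. S100b read 1.41, 1.84 and 1.91 FPKM with DMSO and 4.75, 5.13 and 2.21 with TSA, from 69.6 to 264 reads. TSA replicate 3 was close to the DMSO libraries. The log2 difference was 0.84 (SE 0.26, limma adjusted p = 0.144), and without TSA replicate 3 it was 1.13 (SE 0.15, adjusted p = 0.0304), past both thresholds. Without replicate 3 of both treatments, an alternative chosen after the values were seen, it passed as well (limma adjusted p = 0.00803), and the highest adjusted p of an alternative was 0.373. The sum of 7 glial markers was 6.04 to 8.79 FPKM with DMSO and 8.07 to 10.2 with TSA. S100a6 read 244, 209 and 326 FPKM with DMSO and 351, 375 and 440.5 with TSA, a difference of 0.60 (SE 0.18, limma adjusted p = 0.132).

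S100a4 lay lower with TSA in every library. It read 319.6, 315 and 410.3 FPKM with DMSO and 236, 224 and 271 with TSA, a log2 difference of -0.51 (SE 0.14, limma adjusted p = 0.103). With the replicate as a block the same difference had a limma adjusted p of 0.047 and stayed below the fold threshold. The sum of 9 fibroblast markers was 7573 to 8071 FPKM with DMSO and 4618 to 7327 with TSA, and that of 9 macrophage and monocyte markers 489 to 1031 and 406 to 542, and their part in the level of S100a4 was not tested. S100a10 read 136, 133 and 142 FPKM with DMSO and 129, 118 and 114 with TSA (-0.19, SE 0.09, limma adjusted p = 0.305). S100a11 read 399, 392 and 775 FPKM with DMSO and 371, 362 and 455 with TSA (-0.33, SE 0.27, limma adjusted p = 0.568), and S100a16 75.1, 79.4 and 68.7 FPKM with DMSO and 71.4, 65.9 and 51.2 with TSA (-0.25, SE 0.14, adjusted p = 0.391), and in both the groups overlapped. Replicate 3 was the highest of both treatments in S100a11 and in the sum of 8 smooth muscle and pericyte markers. That sum was 2374 FPKM in DMSO replicate 3 against 957 and 872 in the other DMSO libraries, and 1606.5 FPKM in TSA replicate 3 against 637 and 631 in the other TSA libraries. The remaining lists summed to 16.2 to 23.6 FPKM with DMSO and 23.7 to 28.4 with TSA for endothelial, 40.6 to 47.9 and 25.9 to 51.9 for epicardial and mesothelial, 15.1 to 38.6 and 15.8 to 21.4 for neutrophil, and 4.18 to 25.5 and 32.3 to 55.7 for erythroid markers. Of the 21 partners and receptors, 16 were tested and none was called by limma, where 2.13% of all tested genes were.

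**Figure D5:**
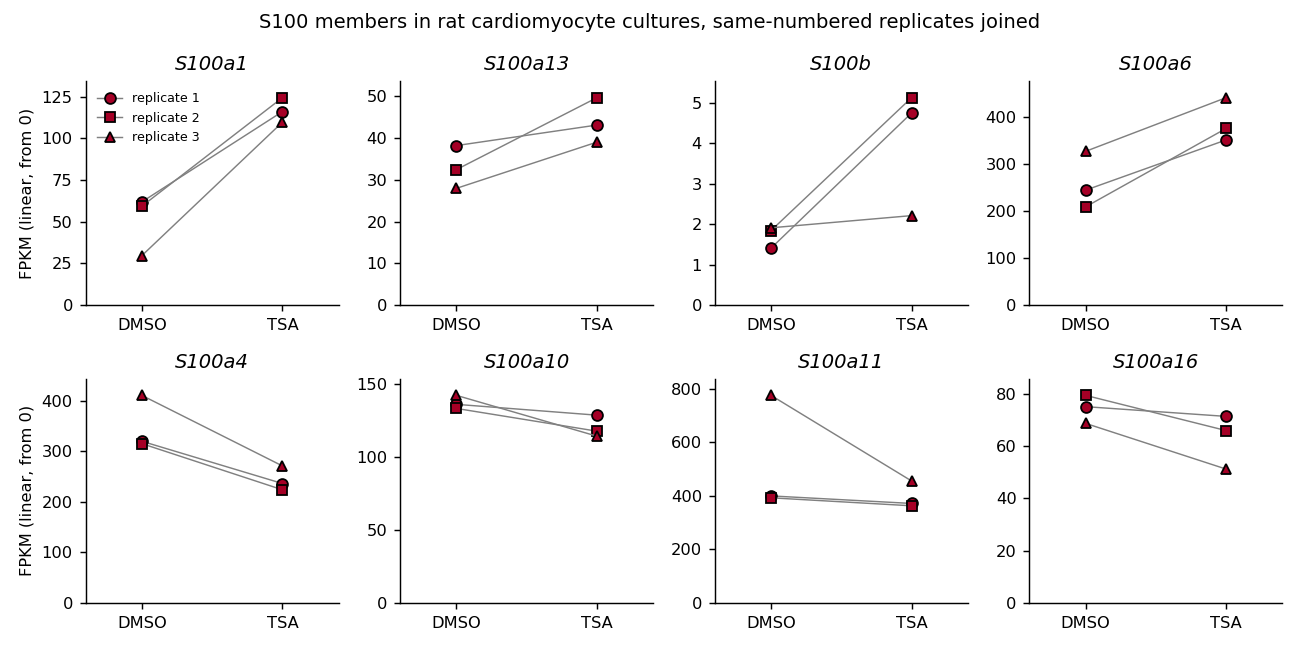
FPKM of the 8 members above the filter in rat cardiomyocytes with DMSO or TSA, on linear axes from 0; each symbol is 1 library, and lines join libraries with the same replicate number. S100a1, S100a13, S100b and S100a6 lie higher with TSA in all 3 pairs and S100a4, S100a10, S100a11 and S100a16 lower in all 3 pairs.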

How the data were processed

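RNA-seq of 8 mouse and 6 rat libraries and ATAC-seq of 8 mouse libraries were used. The authors aligned RNA-seq reads with HISAT2 (2.1.0, per the submitters' processing notes) and ran StringTie (1.3.5 for mouse and 1.3.4d for rat, per the file headers) on GENCODE vM21 (mm10) and Ensembl 103 (Rnor_6.0). The deposited files give FPKM, TPM and coverage per transcript, as the authors' StringTie run normalized them. The authors trimmed ATAC-seq reads with cutadapt, aligned them with Bowtie2 and called peaks per library with MACS2. The deposited peak lists give a score, the fold enrichment as a ratio to background, and −log10 p and q values from the authors' MACS2 run.

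Depth, from coverage over FPKM, was 29.3 to 37.5 M aligned reads in mouse and 28.2 to 38.5 M in rat. Reads per gene were estimated from coverage, transcript length and a read length of 150 bp. Gene FPKM was summed over transcripts. Genes with at least 1 FPKM in at least 2 mouse (13979) or 3 rat libraries (13625) were tested as log2(FPKM + 1) by limma 3.58.1 in R 4.3.3 (lmFit and eBayes with a trend, two-sided, all libraries of a species in 1 fit, Benjamini-Hochberg over all tested genes). The thresholds of a call were 0.05 for the adjusted p and 1 for the size of the log2 difference. The scripts were tested on simulated data with known changes.

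A promoter peak overlapped 2.5 kb either side of a transcript start in the RNA-seq files, and a gained one was in both later and neither E18.5 library. Of the 10 members, 9 matched the RefSeq promoter table.

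Members, lists and tests were chosen with earlier results of these data known. All 10 members are named, as are called partners, other S100 genes over 1 FPKM in at least 2 libraries, and the 5 genes most like S100a4 and S100a1. Deviations from the group means of same-numbered rat libraries correlated at 0.224, 0.194 and 0.346, and the labels do not say whether they are pairs. The main rat fit did not pair them, and the replicate block was an alternative that did.

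For expression, the alternatives were a pseudocount of 0.1, no filter, a mean of at least 5 FPKM, TPM, size factors, limma-voom on estimated reads, a replicate block, a fit of only the 2 ages compared and each library left out. In rat, replicate 3 of both treatments was also left out, which was not planned. For peaks they were equal list lengths, windows of 1 and 5 kb, a fold enrichment of at least 4, RefSeq starts and each library left out.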

Additional observations from a re-analysis of the deposited data

How the results depend on the processing

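Of 113 alternative counts over 10 count results, 99 stayed within 1.5 times the value reported. With each library left out in turn, the members called ranged from 2 to 5 at P1 against E18.5, from 0 to 1 at P3 against P1, from 1 to 2 at P7 against P1, from 0 to 1 at P7 against P3 and from 0 to 1 for TSA against DMSO, and the members with a gained promoter peak at P1 from 0 to 6. A fit without 1 mouse library leaves 1 library at its age, and shares over all genes are not given for such fits. At P7 against P3 the count was 0 without the filter on low genes. For TSA against DMSO it was 1 with size factors and 1 with the replicate block (S100a1), and 1 without replicate 3 of both treatments, which was chosen after the values were seen (S100b). Over all tested rat genes 279, 339 and 549 were called in these 3 settings, against 290 in the main fit. With equal numbers of top peaks the gained members were 0 at P3 and 2 at P7; shorter lists hold fewer peaks by construction, and the cause of the other changes was not tested.

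Over 49 tested gene values and 598 alternatives, 575 kept their direction and stayed called or uncalled, 4 lost the call and 10 gained one. An uncalled value can still cross the adjusted p alone, as S100a1 did at P1 against E18.5 (limma adjusted p = 0.0731 without P1 replicate 1). The 9 that changed sign were all uncalled. S100a16 at P1 against E18.5 was 0.18 with TPM and ranged from -0.41 to 0.30 with each library left out, and at P3 against P1 it ranged from -0.033 to 0.68. At P3 against E18.5, S100a8 ranged from -0.43 to 1.27 and S100a9 from -1.88 to 1.29. At P7 against P1, S100a8 ranged from -1.47 to 0.090 and S100a9 from -1.83 to 0.74. P1 replicate 2 gave both of the last changes of sign.

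In mouse, same-numbered libraries of 2 ages had deviations that correlated at -0.096 to 0.171, so the numbers were not taken as pairs. The replicate block left the mouse counts at 2, 3, 0, 1 and 1 called members, and other than for S100a1 in rat it changed no call of a member. With 2 libraries per age and 28.2 to 38.5 M reads, S100b in mouse and S100a8 and S100a9 in rat are too low to compare.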
